A study of Mus musculus with 4 samples.

Results

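The interval described here lies on mouse chromosome 1 at chr1:74246401-74803200 (build mm9, positions counted from 1), spans 556.8 kb, and holds Vil1, Bcs1l, Rnf25 and Stk36 among 19 protein-coding gene starts. It was read out by tiled Capture-C. In this method crosslinked chromatin is digested, neighbouring ends are ligated, and fragments from selected regions are pulled down with oligonucleotides, and each sequenced read pair counts 1 contact. Members of the interval were all pairs of 6.4 kb bins with both bins inside these limits, which gave 87 bins and 3828 bin pairs of the 558 bins and 155961 bin pairs of the captured region chr1:72083201-75654400. This region is the unbroken run of chromosome 1 bins in the deposited bin table, as the capture targets on chromosome 1 are not given in the sources used here, and the expected values and comparisons with the region rest on that extent. The bin at chr1:74700801-74707200 had no balanced values, so 3741 pairs of 86 bins could be used.

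Contact maps came from 4 libraries of E14 mouse embryonic stem cells grown with leukemia inhibitory factor and inhibitors of MEK and GSK3, with 1 library per group. All 4 shared a background in which internal CTCF sites of a domain on chromosome 15 had been deleted, TetO and LacO operator arrays were integrated heterozygously in that domain, and both copies of RAD21, a core subunit of the cohesin ring, carried a HaloTag-FKBP tag. Line 1B1 has 3xCTCF sites beside the arrays. In line 1A2 these sites were removed, and line 1F4 also lacks them but keeps the promoters of resistance genes at the arrays. The fourth library is 1B1 treated with 500 nM dTag-13 for 2 h, which degrades tagged RAD21, and is called the degraded library below. The lines also carry transgenes for TetR-tdTomato and LacI-eGFP, which bind the arrays and were inserted by piggyBac transposition at sites that are not targeted. Each line is 1 clone. The targeted edits named above were not made on chromosome 1, so 1A2, 1F4 and 1B1 serve here as 3 untreated maps, and whether a transgene lies in the captured region was not tested. Because no group had a second library, no difference below has a replicate check and none was tested. The main values are given with their counting errors or beside the differences of 1F4 and of 1B1 from 1A2, and changes after degradation are log2 values of the degraded library minus 1B1. As 1B1 enters both its difference from 1A2 and the change after degradation, these columns are not independent.

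Cohesin is a protein ring that is thought to reel chromatin into loops until it meets CTCF, a DNA-binding protein whose motif has an orientation, and sites in convergent orientation are often joined by a loop. Domains of frequent contact end at boundaries, which in mammals often coincide with CTCF sites or with active promoters. Gene-dense intervals place many promoters and boundaries close together, and some promoters there are shared by a pair of genes that start head to head.

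The interval had 3.41 coding gene starts per 100 kb, against 1.53 in the rest of the captured region. A coding start lay in 17.2% of its bins and in 8.49% of the other bins. Its median GC content per bin was 45.5%, against 44.7% in the rest. Head-to-head starts shared a bin at 3 places, with 249 bases between the starts of Aamp and Pnkd, 42 between Zfp142 and Bcs1l, and 47 between Rnf25 and Stk36. The latter pairs and the start of Vil1 are shown because these promoters lie in or beside boundary bins or at ends of contacts described below. Bcs1l encodes a mitochondrial chaperone needed to assemble respiratory complex III, Zfp142 a zinc finger protein, Rnf25 a ubiquitin ligase, Stk36 a kinase related to Drosophila fused, and Vil1 villin, which bundles actin in the brush border of gut and kidney epithelium. Sequences are of the NCBIM37 (mm9) plus strand, 5′ to 3′, and capitals mark the bases between the paired starts or, for Vil1, the first transcribed base. They are located at chr1:74634801-74634882, chr1:74647952-74648038 and chr1:74455800-74455950.
Zfp142/Bcs1l: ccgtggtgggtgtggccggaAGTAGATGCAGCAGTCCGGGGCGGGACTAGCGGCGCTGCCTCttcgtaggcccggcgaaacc
Rnf25/Stk36: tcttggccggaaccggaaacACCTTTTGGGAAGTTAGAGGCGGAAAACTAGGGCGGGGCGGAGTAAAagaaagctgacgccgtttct
Vil1: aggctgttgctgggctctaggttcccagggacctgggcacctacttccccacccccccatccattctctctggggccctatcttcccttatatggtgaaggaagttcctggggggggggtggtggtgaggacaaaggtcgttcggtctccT

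The paired promoters held 9 and 7 CpG dinucleotides in 82 and 87 bases, whereas the 151 bases of Vil1 held 2. Over 300 bases around each start, the 9 genes listed as broadly expressed had a median of 20 CpG and the 6 listed as tissue-restricted a median of 5.5, with ranges of 0 to 37 and 1 to 9. The broad list was Arpc2, Aamp, Tmbim1, Ctdsp1, Usp37, Rqcd1, Zfp142, Bcs1l and Rnf25, and the restricted list was Vil1, Slc11a1, Gpbar1, Cyp27a1, Prkag3 and Plcd4. The other coding genes starting in the interval were Pnkd, Gm216, Stk36 and Ttll4. No expression data were used to draw up the lists, and expression in these cells was not examined.

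Sequences matching the 14-letter CTCF consensus with at most 1 mismatch on either strand numbered 28 and lay in 27.6% of the interval's bins, against 20.2% of the other bins of the region. Windows of 3 bins held a match in 64.4% of cases in the interval and in 50.5% in the whole region, so a match near a given feature is common, and it is a description rather than a bound site. The matches printed next lie near boundaries or at the ends of focal contacts. They begin at 74333926 (plus strand, in the bin where Aamp and Pnkd start), at 74455294 (plus strand, beside Vil1), at 74252579 (plus strand, near the start of the interval), and at 74437318 and 74373698 (minus strand, near Ctdsp1 and inside Pnkd). Each is written 5′ to 3′ on the strand of the match, with the 14 matched letters in capitals and 10 bases on each side.
chr1:74333926-74333939: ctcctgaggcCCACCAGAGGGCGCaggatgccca
chr1:74455294-74455307: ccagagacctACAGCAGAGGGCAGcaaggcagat
chr1:74252579-74252592: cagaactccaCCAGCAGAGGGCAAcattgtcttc
chr1:74437318-74437331: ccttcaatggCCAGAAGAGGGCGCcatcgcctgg
chr1:74373698-74373711: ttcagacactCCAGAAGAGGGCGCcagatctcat

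Of the 28 matches, 6 had the same first 8 flanking bases as the last of these (ttcagaca).

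The deposited values are a balanced contact signal, and the whole reads behind them were recovered. The libraries held 3214144 (1A2), 4089968 (1F4), 3234581 (1B1) and 3622612 (degraded) reads, of which 197946, 255996, 194954 and 236350 joined bins of the interval. Counting errors are Poisson errors of these reads, and as the reads carried no molecular identifiers they cover counting error alone.

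Boundaries divided the interval into 4 segments. The insulation value is the log2 mean signal of a square of 10 by 10 bins (64 kb a side) placed across a bin, divided by the mean of the region before taking logs, and low values mark boundaries. Boundaries were called in the mean of 1A2 and 1F4, which leaves 1B1 and the degraded library out of the calls. Of 532 bins in the region, 20 (3.76%) were boundaries, of which 3 lay in the interval and 2 in the bins just outside its ends. A square of 5 bins gave 5 boundaries inside the interval and a square of 20 bins gave 2. The boundary between segments 1 and 2, at Aamp and Pnkd, was not found with 20 bins or on recovered reads without balancing.

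The boundary bins inside were chr1:74329601-74336000, where Aamp and Pnkd start and which the start of Gpbar1, the bile acid receptor gene, adjoins; chr1:74444801-74451200, which lies between the end of Ctdsp1 and the start of Vil1 and overlaps no gene; and chr1:74643201-74649600, where Rnf25 and Stk36 start. Aamp encodes a protein linked to cell migration, Pnkd is mutated in a movement disorder, and Ctdsp1 encodes a phosphatase of the tail of RNA polymerase II. The first boundary bin held 1 CTCF match on the plus strand, the bin beside the second held 1 on the plus strand, and no match lay in the third or in the bins next to it. Segment 1 (83.2 kb) held the starts of Arpc2 and Gpbar1. Segment 2 (115.2 kb) held Aamp, Pnkd, Tmbim1, Gm216, Slc11a1 and Ctdsp1, with the highest share of bins with a CTCF match among the segments (44.4%) and a median GC content of 49.3%. Segment 3 (198.4 kb) held Vil1, Rqcd1, Plcd4, Usp37, Zfp142 and Bcs1l, and segment 4 (160 kb) Rnf25, Stk36, Ttll4, Cyp27a1 and Prkag3.

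The boundary in front of Vil1 was the deepest of the 3 and was not weaker without RAD21 at this square size. Its insulation was -0.65, -0.63 and -0.58 in 1A2, 1F4 and 1B1, and -0.77 in the degraded library. The change was -0.19 ± 0.04, against differences of 0.02 for 1F4 and 0.07 for 1B1 from 1A2. With a square of 5 bins the change was -0.077, and with 20 bins it was 0.030, so its sign depends on the size of the square.

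The boundary at Rnf25 and Stk36 was shallow and differed between 1B1 and the degraded library by less than its counting error. Its insulation was -0.27, -0.12, -0.17 and -0.16 in 1A2, 1F4, 1B1 and the degraded library, a change of 0.01 ± 0.04 beside a difference of 0.14 between 1F4 and 1A2. With a square of 5 bins its change was -0.15. The next bin, chr1:74649601-74656000, had 247, 309, 297 and 257 reads beyond 250 kb in 1A2, 1F4, 1B1 and the degraded library. The boundary bin had 1900, 2369, 2226 and 1864. At that next bin, which its own square leaves out, insulation was 0.001, 0.10, 0.05 and 0.11. Whether the low coverage of that bin makes the dip was not tested. The boundary at Aamp and Pnkd had insulation of 0.03, -0.04, 0.01 and -0.04, a change of -0.05 ± 0.04, and with a square of 5 bins the change was 0.16. The lowest value within 5 bins lay 3 bins further on in the degraded library, which made the change -0.13.

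The ends of the interval differed from each other. At chr1:74240001-74246400, the bin of Cxcr1, a chemokine receptor gene, insulation was -0.53, -0.49 and -0.56 in the untreated libraries and -0.14 in the degraded library, a change of 0.42 ± 0.05. The lowest value of the degraded library within 5 bins lay 2 bins further in, at chr1:74252801-74259200, and was -0.28, so between the lowest values of 1B1 and the degraded library the change was 0.28 ± 0.05. At chr1:74803201-74809600 it was -0.62, -0.57, -0.48 and -0.49, a change of -0.01 ± 0.04. There too the lowest value of the degraded library lay 2 bins further on, at chr1:74816001-74822400, and was -0.56, against -0.30 for 1B1 in that bin. Between the lowest values the change was -0.086 ± 0.0421. On recovered reads the change was 0.26 at the first of these and -0.19 at the second, and with a square of 20 bins it was -0.13 at the second. In the rest of the region, insulation values were higher in the degraded library at 15 of 15 boundaries, by a median of 0.18 (at 14 of 15, by a median of 0.15, between lowest values within 5 bins). Some of these rises were smaller than their counting errors, such as 0.006 ± 0.042 at chr1:72352001-72358400 (Xrcc5) and 0.012 ± 0.034 at chr1:72448001-72454400. The 3 boundaries inside the interval changed by -0.19, -0.05 and 0.01, so a change near 0 was not particular to the interval. Among the untreated lines, values at these 15 boundaries were higher in 1B1 than in 1A2 at 11, with a median of 0.04, and higher in 1F4 than in 1A2 at 3, with a median of -0.03.

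Across the interval, insulation was lower after degradation in 50 of 86 bins, against 45.5% of bins over the whole region. The standard deviation of the change over the interval's bins was 0.20, compared with 0.06 for 1F4 and 0.05 for 1B1 against 1A2. Both extremes, chosen after their values were seen, lay away from the boundaries. The lowest change was -0.48 at chr1:74380801-74387200, in the body of Pnkd, and the highest was 0.34 at chr1:74508801-74515200, in the body of Usp37.

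**Figure D1:**
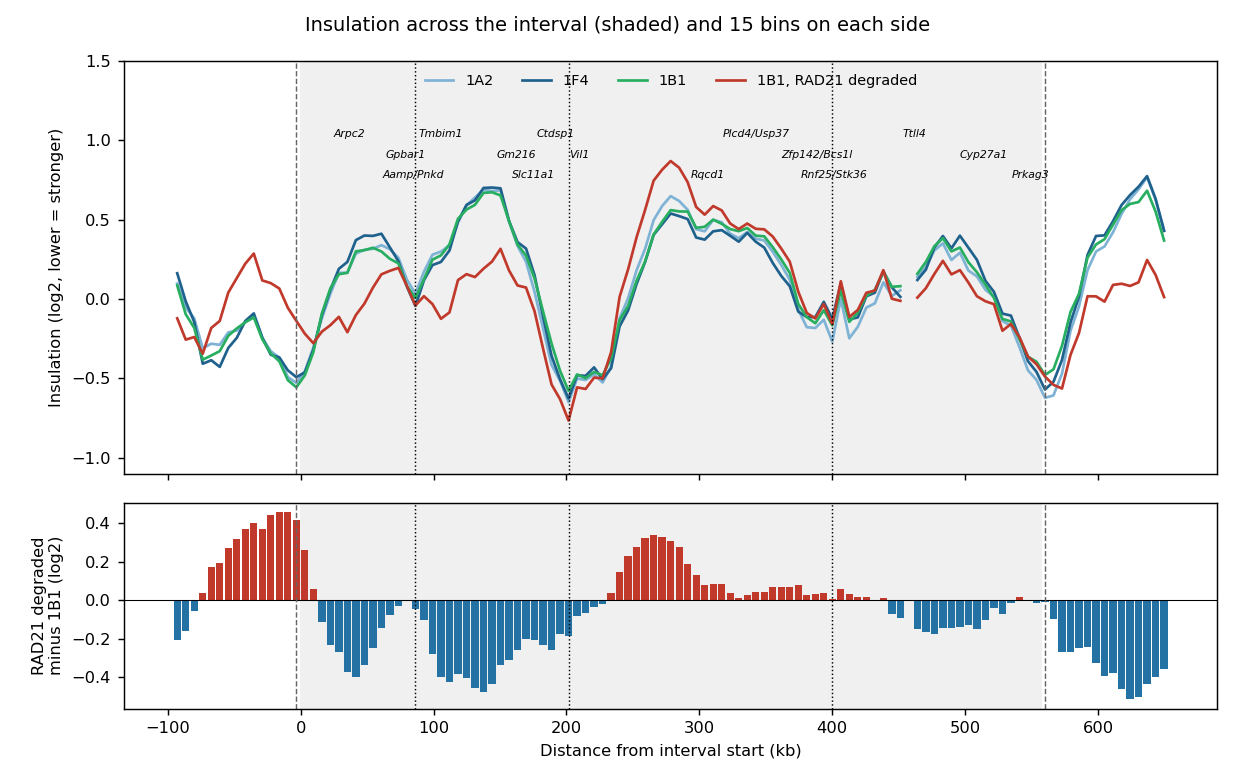
Insulation (log2, upper panel, lower values are stronger) and its change in the degraded library relative to 1B1 (lower panel) against distance from the interval's start in kb, with the interval shaded, dashed lines at the edge boundaries and dotted lines at the 3 boundaries inside. The 3 untreated lines run together, the dip in front of Vil1 reaches -0.77 in the degraded library, and the bin of the left edge stands at -0.56 in 1B1 and -0.14 in the degraded library, whose own lowest value there is -0.28, 2 bins further in.

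Contacts within the interval were shorter in range in the degraded library. The slope of log10 mean signal on log10 separation from 25 to 400 kb was -1.14 for 1A2 and 1F4 alike, -1.08 for 1B1 and -1.19 for the degraded library. The change from 1B1 was -0.11 ± 0.0152, and it was -0.25 when fitted from 50 to 250 kb. In the rest of the region the slopes from 25 to 400 kb were -0.83, -0.85, -0.79 and -1.03. Over that range the interval decayed more steeply in each of the 4 libraries and its slope moved less between 1B1 and the degraded library. The rest of the region was not fitted from 50 to 250 kb, so this comparison holds for 25 to 400 kb alone.

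By band of separation, signal in the degraded library was higher at short range and lower at long range. At 6.4 to 25 kb the mean signal per bin pair, with each library's region summed to 1000000, was 135, 142, 125 and 162 in 1A2, 1F4, 1B1 and the degraded library, a change of 0.37 ± 0.01. At 25 to 50 kb the change was 0.04 ± 0.02. At 100 to 250 kb the mean signal was 10.1, 10.1, 10.9 and 7.32, a change of -0.57 ± 0.02, whereas 1F4 differed from 1A2 by -0.01 and 1B1 by 0.10.

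The band of 250 to 600 kb differed from the rest of the region. Its change was -0.45 ± 0.03 inside the interval and -0.71 outside it, and at 100 to 250 kb the corresponding changes were -0.57 and -0.54. These sizes depend on the scale: with pairs of the same or neighbouring bins left out of the sum to which libraries are scaled, the changes were 0.61, 0.28, -0.018, -0.33 and -0.21 from the shortest to the longest band, so the change of the 50 to 100 kb band (-0.26 on the original scale) rests on that choice.

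Dividing each pair by the mean at its separation in the whole region (observed/expected) removes the scale. At 50 to 100 kb the interval stood at 1.19 in each untreated library and at 1.14 in the degraded one. At 250 to 600 kb it stood at 0.725 ± 0.0114, 0.753 and 0.745 in 1A2, 1F4 and 1B1 and at 0.890 ± 0.0144 in the degraded library. Pairs of loci at opposite ends of the interval were thus in less contact than region pairs of equal separation, and the shortfall was smaller without RAD21.

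**Figure D2:**
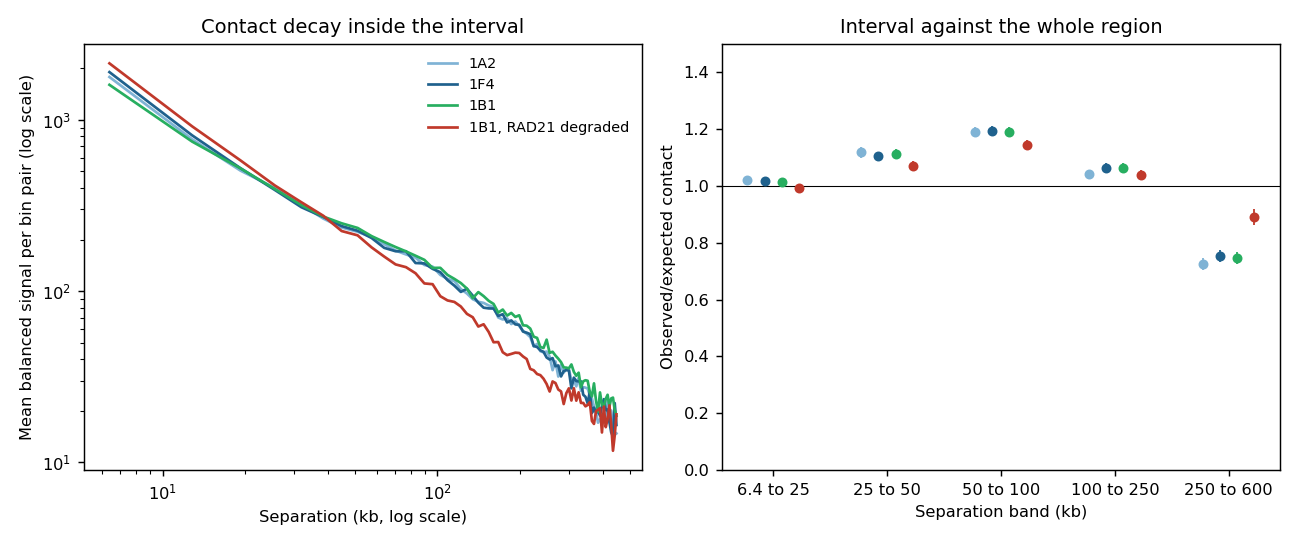
Left, mean balanced signal per bin pair against separation in kb (both axes logarithmic) for the 4 libraries. Right, observed/expected contact of the interval in 5 bands of separation, with bars of 1.96 counting errors. In the left panel the degraded library lies above the others below 25 kb and under them from 50 to 250 kb. In the right panel it stands at 0.890 against 0.725 to 0.753 at 250 to 600 kb.

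The interval's bins kept most of their signal inside it, 67.7%, 69.7%, 63.97% and 71.4% in 1A2, 1F4, 1B1 and the degraded library, with counting errors of 0.0902 to 0.103. At separations of 25 kb or more these shares were 42.7%, 44.4%, 40.5% and 42.9%. At that distance the degraded library lay within the range of the untreated lines.

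The segments differed in their values after degradation. In the degraded library, observed/expected contact at 25 kb or more was lower within and between segments 1 and 2 (Arpc2 to Ctdsp1), higher within segment 3 (Vil1 to Bcs1l), and higher between segments 1 or 2 and segment 4. Because the segments were drawn after the maps had been seen, their values are descriptions.

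Within segment 2, from Aamp to Ctdsp1, contact was 1.47, 1.49 and 1.46 in 1A2, 1F4 and 1B1 and 1.13 in the degraded library, a change of -0.37 ± 0.03. Within segment 1 it was 1.25, 1.34, 1.27 and 0.960, a change of -0.40 ± 0.05. For pairs 60 kb or more apart these changes were -0.59 ± 0.0574 within segment 2 and -1.02 ± 0.198 within segment 1. Between segments 1 and 2 it was 1.34, 1.33, 1.31 and 1.10. The untreated values overlapped closely in these pairs, and the degraded library lay under all 3.

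Segment 1 was also in contact with segment 3 across segment 2. The value was 1.29, 1.33 and 1.32 in the untreated libraries, higher than the 0.752, 0.751 and 0.798 of the adjoining segments 2 and 3. In the degraded library it was 0.978, a change of -0.44 ± 0.04, and -0.31 on recovered reads without balancing. Contact between segments 2 and 3 was 0.712, a change of -0.17 ± 0.03, and -0.11 on recovered reads.

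Within segment 3, from Vil1 to Bcs1l, contact was 1.31, 1.25 and 1.29 in the untreated libraries and 1.46 in the degraded library. The change was 0.18 ± 0.02, beside differences of -0.06 and -0.02 for 1F4 and 1B1 from 1A2, and it was 0.37 for pairs 60 kb or more apart and 0.29 on recovered reads. This was the sole within-segment value that was higher without RAD21. Segment 4, from Rnf25 to Prkag3, moved from 1.13, 1.14 and 1.14 to 1.06, a change of -0.10 ± 0.03.

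Contact between segments 2 and 4 was the lowest of the 10 values in the untreated libraries, at 0.540, 0.516 and 0.549. In the degraded library it was 0.848, a change of 0.63 ± 0.05 or 1.54-fold, on 1909 reads in 1B1 and 1885 in the degraded library. Segments 1 and 4 moved likewise, from 0.668, 0.707 and 0.683 to 0.840, on 1128 reads in 1B1 and 942 in the degraded library. Segments 3 and 4 moved from 0.827, 0.894 and 0.857 to 0.945, on 11118 and 10588 reads. The last change was 0.14 ± 0.02, beside a difference of 0.11 between 1F4 and 1A2, and it was 0.25 on recovered reads. In each of these pairs of segments reads were fewer in the degraded library than in 1B1, so the rises are in contact divided by expected.

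**Figure D3:**
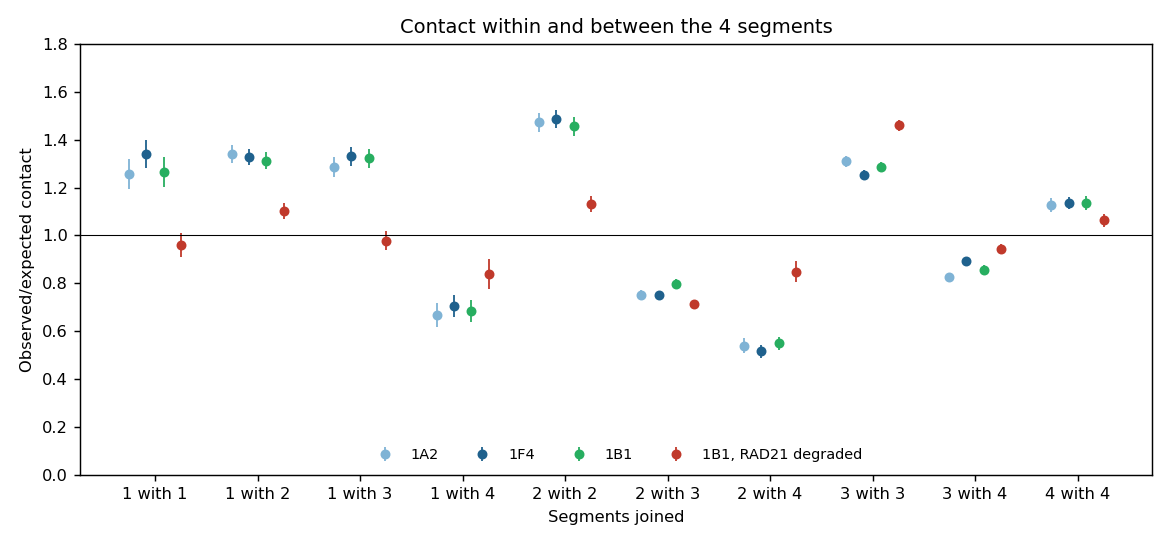
Observed/expected contact at 25 kb or more within and between the 4 segments in each library, with bars of 1.96 counting errors and a line at 1. The degraded library lies under the others for 1 with 1, 1 with 2, 1 with 3 and 2 with 2, above them for 3 with 3, and at 0.848 against 0.516 to 0.549 for 2 with 4.

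Smaller windows were compared in the same way. Of 378 tiles of 3 by 3 bins (19.2 kb) at 25 kb or more, 279 held a mean of at least 50 reads. A tile was called where observed/expected changed by over 1.5-fold. After degradation 27 tiles (9.68%) were lower, against 10.1% of 3797 tiles in the region, and 23 (8.24%) were higher, against 6.27% in the region. Between 1F4 and 1A2 the interval had 4 tiles (1.43%), against 2.45%, and between 1B1 and 1A2 it had 2 (0.717%), against 2.4%. The share of changed tiles was therefore near that of the region, and they were unevenly placed. Tiles not divided by the expected value gave 113 lower and 0 higher, since the lower long-range signal is then included.

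Lower tiles made up 14 of 43 between segments 1 and 3 and 6 of 27 between segments 1 and 2. Higher tiles made up 9 of 15 between segments 2 and 4, where 0 were lower, and 7 of 79 between segments 3 and 4, where 2 were lower. Between segments 2 and 3, 4 of 52 were lower and 5 higher. Within segments few tiles were called: 1 of 3 was lower in segment 1, 0 of 6 in segment 2, 2 of 28 were higher in segment 3, and 0 of 21 were called in segment 4. The most extreme tiles were picked after their values were seen. Between chr1:74246401-74265600 and chr1:74496001-74515200, in the Usp37 body, observed/expected was 1.40, 1.76, 1.62 and 0.639 on 62, 99, 80 and 23 reads. Between chr1:74438401-74457600, which spans the boundary in front of Vil1, and chr1:74630401-74649600, which spans the Zfp142/Bcs1l and Rnf25/Stk36 promoters, it was 1.10, 0.949, 0.915 and 1.78 on 202, 217, 188 and 273 reads.

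**Figure D4:**
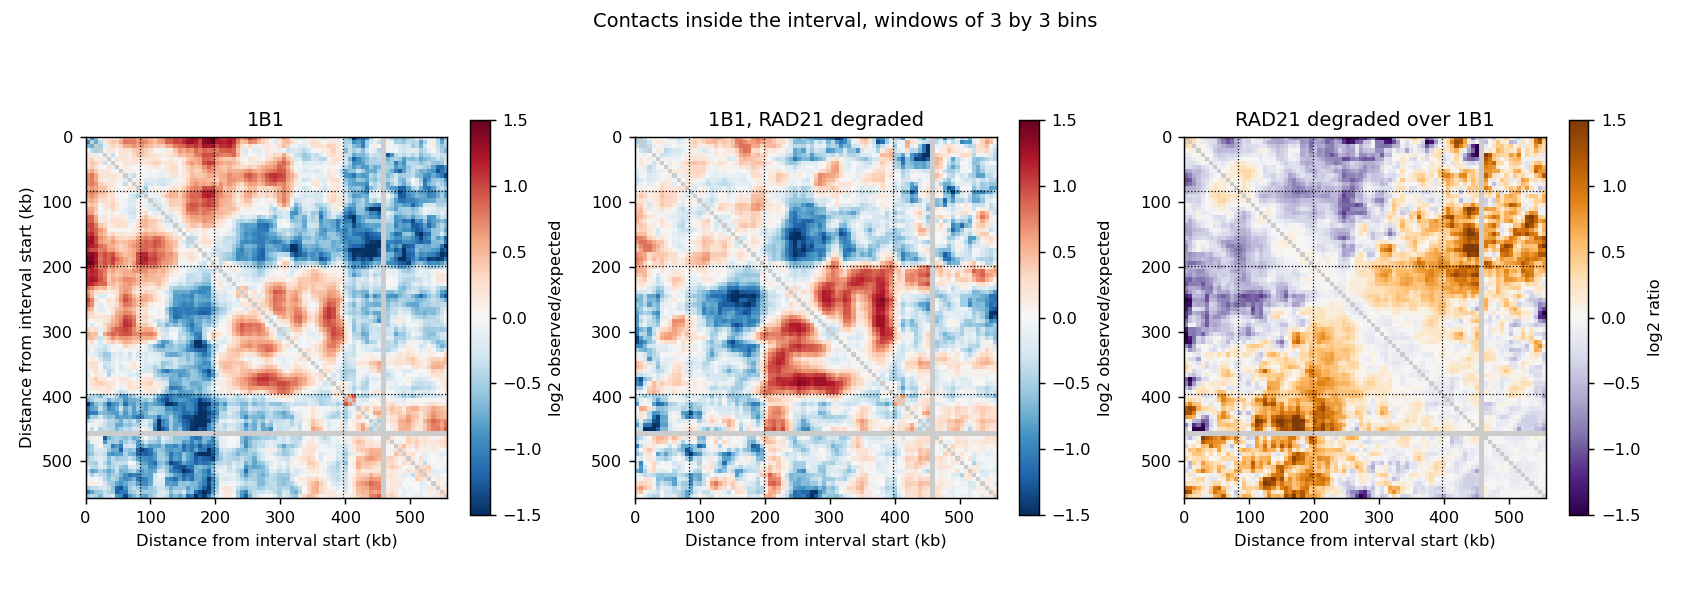
Log2 observed/expected contact in 1B1 and in the degraded library, and their log2 ratio, in windows of 3 by 3 bins, with both axes in kb from the interval's start and dotted lines at the boundaries that separate segments 1 to 4. In the ratio map the blocks joining segment 1 to segments 2 and 3 are purple (lower) and the block joining segments 2 and 4 is orange (higher); grey marks pairs that were not used.

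Pairs of promoter bins had higher observed/expected contact than other pairs in each of the 4 libraries. With wider promoter bins the difference was smaller in the untreated libraries and was not kept in the degraded library. The 15 bins with a coding start formed 99 pairs at 25 kb or more, with observed/expected of 1.27 ± 0.0279 for 1A2, 1.3 for 1F4, 1.27 for 1B1 and 1.23 for the degraded library. The change was -0.04 ± 0.04. It was -0.094 with promoter bins widened by 1 bin on each side and 0.058 for pairs 60 kb or more apart, so its sign depends on these choices. Pairs with no promoter bin stood at 1.06, 1.07, 1.07 and 1.08. Widened promoter bins gave 1.09, 1.11, 1.11 and 1.04, so that the degraded library then lay under that 1.08. In the rest of the region, promoter pairs stood at 1.34, 1.3, 1.34 and 1.31, so the interval was not above its surroundings in this measure.

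The change of promoter pairs depended on their distance. At 25 to 100 kb they stood at 1.34, 1.45 and 1.37 in the untreated libraries and 1.23 in the degraded library, a change of -0.16 ± 0.06. Other pairs at 25 to 100 kb stood at 1.15, 1.14 and 1.15 and then 1.10, a change of -0.06 ± 0.01. At 100 to 250 kb promoter pairs changed by -0.03 ± 0.08 and other pairs by -0.04 ± 0.02. At 250 to 600 kb promoter pairs stood at 0.976, 0.820 and 0.897 and then 1.20, a change of 0.42 ± 0.12 on 346 reads in 1B1 and 304 in the degraded library. Other pairs in that band moved from 0.717, 0.751 and 0.740 to 0.880, a change of 0.25 ± 0.03. Among 42 promoter pairs with at least 20 reads in 1A2 and in 1F4, 25 were lower after degradation and 17 higher, with a median of -0.12, against 55.5% lower among bin pairs of the region with that number of reads.

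Among promoter pairs with at least 20 reads in 1A2 and in 1F4, the 5 with the highest contact in these libraries, which chose them, all joined genes of segments 1 to 3. The pair of Arpc2 with Rqcd1 had a mean above that of 3 of these 5 but was left out by the minimum, with 14 reads in 1F4. Aamp/Pnkd and Ctdsp1, 102.4 kb apart at opposite ends of segment 2, stood at 4.30, 3.77, 3.84 and 2.43 on 105, 116, 100 and 49 reads. The change was -0.66 ± 0.25. Arpc2, which encodes a subunit of the actin-nucleating Arp2/3 complex, and Ctdsp1 stood at 3.34, 2.45, 3.38 and 1.99 on 41, 36, 45 and 19 reads. Aamp/Pnkd and Gm216, a predicted gene, stood at 2.69, 2.76, 2.28 and 1.56, a change of -0.54 ± 0.25. In these pairs the degraded library had the lowest value and lay under 1B1 by between 1 and 3 counting errors.

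For the remaining pairs, 1B1 was already lower than 1A2. Tmbim1, which encodes a membrane protein, and Ctdsp1 stood at 3.45, 3.23, 1.84 and 1.91, with 1B1 differing from 1A2 by -0.91 ± 0.30. Aamp/Pnkd and Rqcd1, which encodes a subunit of the CCR4-NOT deadenylase complex, stood at 3.49, 2.58, 1.76 and 2.19 on 31, 30, 17 and 14 reads. Neither had a change after degradation beyond its counting error.

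Seen from single promoters, the share of contacts that lay upstream, toward lower coordinates, was higher in the degraded library than in 1B1 for 8 of 15 promoter bins and lower for 7, against 49.8% of the region's 552 bins that were higher. It lay under the range of the untreated libraries in 5 bins, of which 3 were in segment 2 and 2 in segment 3, and above that range in 7. Over the region 41.7% of bins lay under and 39.5% above, so the promoter bins were near the background. Of all bins in segment 2, 12 of 18 lay under the range, and of those in segment 4, 16 of 24 lay above it. Ctdsp1 and Vil1, on either side of the deepest boundary, were among those under it. At 25 kb or more, the upstream share of the Ctdsp1 bin was 70.5%, 73.9% and 72.7% in the untreated libraries and 55.6% in the degraded library. For Vil1 it was 56.3%, 55.3% and 58.8% and then 42.7%. The other segment 2 bins under the range were those of Gm216 and Slc11a1, with 68.3% and 68.9% in 1B1 and 57.1% and 58.2% in the degraded library.

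Vil1 had more contact with segment 4 after degradation, from 0.749, 0.895 and 0.813 to 1.64, a change of 1.01 ± 0.145 on 205 reads in 1B1 and 288 in the degraded library. Its contact with segment 1 was 1.64, 1.51 and 1.45 and then 1.08. Ctdsp1 had less contact with segment 1, from 2.27, 2.34 and 2.26 to 1.31, a change of -0.78 ± 0.147. With segment 4 it too had more contact, from 0.503, 0.350 and 0.401 to 0.683, a change of 0.77 ± 0.237. With segment 3 its change was 0.28 ± 0.104. The other segment 2 bins changed with segment 4 by 0.58 ± 0.199 (Aamp/Pnkd), 0.09 ± 0.248 (Tmbim1), 0.58 ± 0.207 (Gm216) and 0.82 ± 0.274 (Slc11a1).

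The share of contacts that stayed in the promoter's own segment was higher in the degraded library than in 1B1 for 13 of 15 promoter bins, against 81.4% of the interval's 86 bins. It lay above the range of the untreated libraries in 7 bins, which were the 4 bins of segment 3, 1 of 2 in segment 1 and 2 of 4 in segment 4, and under it in 2 of 5 in segment 2. Over the 86 bins 55.8% lay above and 18.6% under, so the promoter bins were not above the background. Of all bins of segment 3, 31 of 31 lay above the range, compared with 1 of 18 in segment 2. The share of Rqcd1 contacts that stayed in segment 3 was 39.6%, 40.8% and 37.7% in the untreated libraries and 49.96% in the degraded library. For Zfp142/Bcs1l it was 33.1%, 31.9% and 32.4% and then 38.1%. For Vil1 it was 25.2%, 26.7% and 22.1% and then 29.9%. Aamp/Pnkd, 1 of the 2 bins under the range, had 29.4%, 29.2% and 25.9% of its contacts in segment 2 and then 21.3%. Rnf25/Stk36 had 23.3%, 24.6% and 22.4% in segment 4 and then 23.4%, within the range of the untreated libraries.

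Contact of a promoter bin with the other promoter bins had a higher median over the broad than over the restricted list in the 4 libraries, with overlapping ranges. The median observed/expected was 1.44, 1.53, 1.48 and 1.45 over the broad list and 0.949, 1.01, 1.00 and 0.996 over the restricted list. In 1A2 single genes ranged from 0.789 to 2.14 on the broad and from 0.789 to 1.25 on the restricted list, and Usp37, Rnf25, Zfp142 and Bcs1l of the broad list lay below the highest restricted value. Aamp/Pnkd moved from 2.14, 2.01 and 1.85 to 1.55. Zfp142/Bcs1l moved the other way, from 1.15, 1.18 and 1.19 to 1.45, and so did Rnf25/Stk36, from 1.10, 1.08 and 1.13 to 1.37. The lists share 1 bin, where Usp37 and Plcd4 start, and the bin of Zfp142 and Bcs1l enters the broad list for both genes. The lists hold 9 and 6 genes.

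Focal contacts, where a window of 3 by 3 bins stands out from the ring around it, were few. Calls required at least 1.5 times the ring in both 1A2 and 1F4, and 5 of 1237 windows (0.404%) passed, against 0.327% of 15303 in the region. Of their 10 ends, 6 held a CTCF match, against 64.4% of windows of 3 bins in the interval, so the ends were not above the background. In 2 contacts the matches were in convergent orientation, and the share of window pairs with such matches was not computed.

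The focal contact with the largest change in observed/expected joined the bin at 74252801, near the start of the interval, to the bin at 74425601, inside the macrophage metal transporter gene Slc11a1, at a distance of 172.8 kb, and the right window also holds the start of Ctdsp1. Its left end has the plus-strand match printed above (74252579) and its right end holds minus-strand matches including the one printed (74437318). The window over its ring was 1.88 and 1.81 in 1A2 and 1F4, 1.49 in 1B1 and 1.27 in the degraded library. Its observed/expected was 3.29, 3.22, 2.57 and 1.54 on 195, 240, 162 and 72 reads. Line 1B1 lay between the other untreated lines and the degraded library.

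A contact inside segment 3, between the bins at 74521601 and 74617601 (96 kb), had window over ring values of 1.83, 1.92, 1.76 and 1.75. The contact between Ctdsp1 and Rqcd1 (108.8 kb) had 1.63, 1.55, 1.60 and 1.59. By this measure they were level across the 4 libraries within their counting errors, whereas by observed/expected the first was 2.14 in 1B1 and 2.46 in the degraded library and the second 1.31 and 1.69. The contact of Gpbar1 with Zfp142/Bcs1l (313.6 kb) had 1.74, 1.61, 1.34 and 1.10, and the contact between the bins at 74252801 and 74368001 (115.2 kb) had 1.56, 1.51, 1.44 and 1.34. The change after degradation was below 0 for 5 of 5 contacts with a median of -0.10, and for none of the 5 did it pass 2 counting errors. By observed/expected 3 of 5 were lower, and 3 of 5 changes passed 2 counting errors: -0.74 ± 0.212 between 74252801 and 74425601, 0.20 ± 0.0943 inside segment 3, and 0.37 ± 0.149 between Ctdsp1 and Rqcd1. Outside the interval 26 of 45 focal contacts were lower, with a median of -0.14.

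Contacts beyond 250 kb, most of them with loci outside the interval, separated the segments further. This measure was added after the maps had been seen. For segment 2, observed/expected was 0.767, 0.728 and 0.784 in the untreated libraries and 0.965 in the degraded library, a change of 0.30 ± 0.02. For segment 1 the change was 0.23 ± 0.02 and for segment 4 it was 0.14 ± 0.02. At 400 kb or more these changes were 0.39 and 0.082. Segment 3 moved from 0.679, 0.687 and 0.703 to 0.636, a change of -0.15 ± 0.01, which was -0.029 on recovered reads.

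Values differed with the direction of the partner. Segment 2 with loci downstream of the interval stood at 0.646, 0.618 and 0.688 and then 1.33, a change of 0.95 ± 0.03, whereas with loci upstream of the interval it changed by -0.13 ± 0.02. Segment 1 with downstream loci stood at 0.691, 0.646 and 0.724 and then 1.25. Segment 3 with upstream loci stood at 0.677, 0.698 and 0.696 and then 0.505, a change of -0.46 ± 0.02, and with downstream loci it changed by 0.24 ± 0.02.

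By single bins, contact beyond 250 kb was higher by over 2 counting errors in 41 of 86 bins, against 31.5% of 552 bins in the region, and lower in 15, against 27.5%. All 15 lower bins lay in segment 3, while 11 of 13 bins of segment 1 and 17 of 18 of segment 2 were higher. The median change was 0.14 in the interval and -0.00 in the rest of the region, where bins ranged from -0.52 to 0.75.

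The lowest values came from the body of Usp37, a deubiquitinase gene of 108.777 kb, and were chosen after they were seen. The 10 bins at chr1:74483201-74547200 overlap no other coding gene, hold no coding start, and have a median GC content of 38.5%. Their contact beyond 250 kb was 0.551, 0.567 and 0.580 in the untreated libraries and 0.427 in the degraded library, a change of -0.44 ± 0.03. With loci upstream of the interval it was 0.591, 0.610 and 0.616 and then 0.360, and with loci downstream it was 0.460, 0.456, 0.489 and 0.510. With the rest of segment 3, in contrast, contact of these bins was 1.31, 1.26 and 1.29 and then 1.45.

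GC content moved with this measure. Across the 86 bins the change beyond 250 kb had a Pearson correlation of 0.58 and a Spearman correlation of 0.46 with GC content, where neighbouring bins share reads, library and base composition, and the same Pearson correlation for the difference of 1F4 from 1A2 was -0.26. The 26 bins with a lower value had a median GC content of 42.5% and the other 60 bins 46.2%. The part of base composition in the change was not tested.

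**Figure D5:**
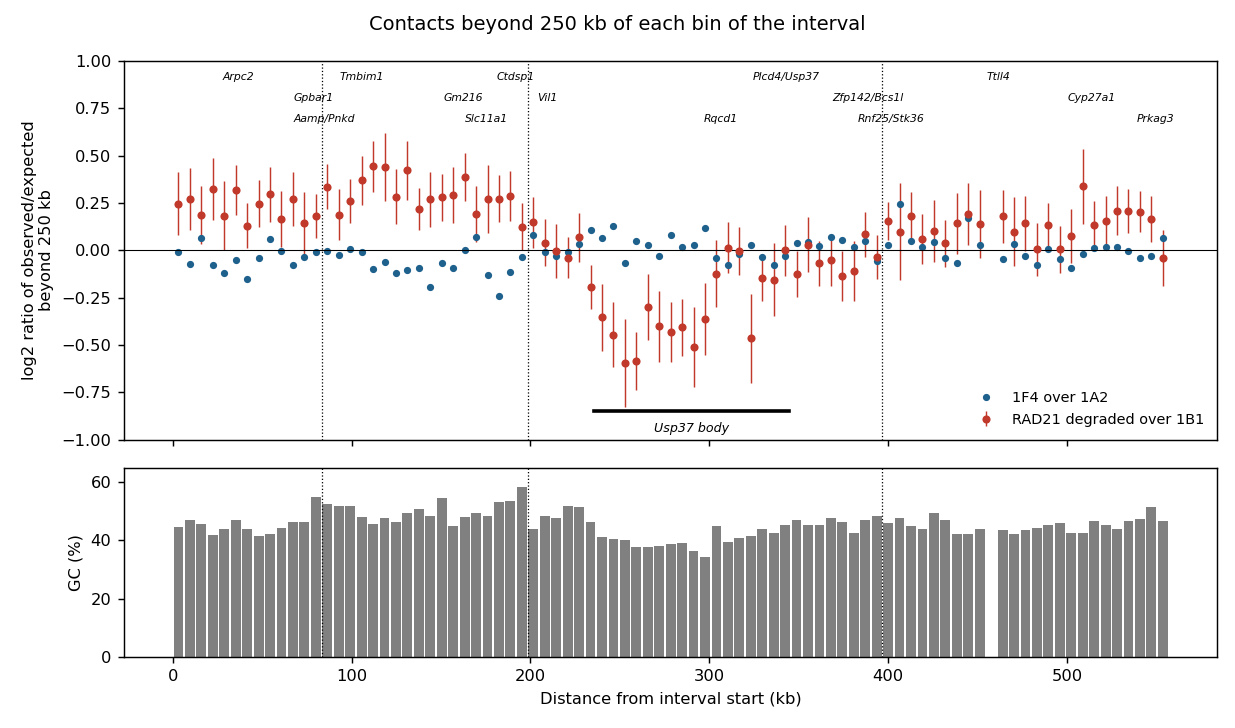
Upper panel, log2 ratio of observed/expected contact beyond 250 kb for each bin of the interval, for the degraded library over 1B1 (bars of 1.96 counting errors) and for 1F4 over 1A2, against distance from the interval's start in kb. Lower panel, GC content of the bin in percent. Bins of segments 1 and 2 lie above 0 in the degraded library, and the 10 bins between the start of the black bar (the extent of Usp37) and Rqcd1 lie between -0.60 and -0.30, where GC content is also low.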

How the data were processed

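The authors mapped read pairs to mm9 with HiC-Pro 2.11.4 (named in the submitters' processing notes), kept unique valid pairs within the captured targets, binned them at 6.4 kb and balanced the bins with ICE. What they deposited is a balanced signal for each bin pair, with nearly the same total in each library. A balanced value is a read number times 1 factor per bin. Solving for the factors gave back whole reads for 100% of values (within 0.05, largest deviation 0.00862 reads). Groups came from the sample labels.

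Expected signal was the mean at each separation in the captured region. Boundaries were minima within 5 bins, and on either side a value at least 0.3 higher had to lie within 15 bins. Focal contacts needed 100 reads and 60 kb. Genes were taken from the annotation GENCODE M1 and sequences from NCBIM37. Named genes were Vil1, Bcs1l, Rnf25 and Stk36, those starting within 1 bin of a boundary, those at the ends of focal contacts, and the 5 strongest promoter pairs. Members and lists were chosen with earlier results of these data known. Scripts ran in Python 3.11.15 with NumPy 2.4.6, pandas 2.3.3, SciPy 1.17.1 and Matplotlib 3.10.9 and were tested on simulated maps. For 46 results, 142 alternative values were computed.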

Additional observations from a re-analysis of the deposited data

Results flagged for a closer look

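Reads joining the interval to the captured regions on other chromosomes were not used in any comparison above, and they were more frequent in the degraded library. They made up 0.155% of the reads of the interval's bins there (502 of 324088, Wilson 95% interval 0.142% to 0.169%), above the untreated libraries at 0.0840% in 1A2 (243 of 289140), 0.0659% in 1F4 (240 of 364065) and 0.102% in 1B1 (308 of 302014, interval 0.0912% to 0.114%). The intervals cover counting error only, and the origin of these reads was not tested. The same share was not computed for the rest of the captured region, so whether the difference is particular to this interval was not tested.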

How the results depend on the processing

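No paired analysis was possible because each group had 1 library, and for the same reason no library could be left out of a group. Of 142 alternative values (106 planned, 36 added after the data were seen), 57 stayed within 1.96 counting errors of the value reported (for a count, within 1.5 times), 84 moved beyond that and 1 reversed. In all 7 changed sign, and 6 of these had a reported value within 1.96 counting errors of 0 and are counted by their distance alone; where no cause is named, the cause was not tested. Slopes fitted from 50 to 250 kb were -1.06, -1.05, -1.003 and -1.25 in 1A2, 1F4, 1B1 and the degraded library, a change of -0.25, and recovered reads gave -1.22 for the degraded library. Band changes, with pairs of the same or neighbouring bins left out of the sum to which libraries are scaled, were 0.61, 0.28, -0.018, -0.33 and -0.21 from short to long range, and on recovered reads 0.39, 0.089, -0.20 and -0.48 for the first 4. Shares inside the interval were 42.7%, 44.4%, 40.5% and 42.9% at 25 kb or more and 68.5%, 70.4%, 64.6% and 73.0% on recovered reads. A square of 5 bins found 5 boundaries, with changes of 0.16 at Aamp/Pnkd, -0.077 in front of Vil1 and -0.15 at Rnf25/Stk36. A square of 20 bins reversed the change in front of Vil1 to 0.030, gave -0.13 at the right edge, and did not find the Aamp/Pnkd boundary, which was also not found on recovered reads. Recovered reads gave 0.26 at the left and -0.19 at the right edge, and the lowest values within 5 bins gave 0.28 at the left edge and -0.13 at Aamp/Pnkd. Promoter pairs stood at 1.21, 1.22, 1.20 and 1.16 with the expected value taken inside the interval, at 1.09, 1.11, 1.11 and 1.04 with promoter bins widened, at 1.33 in 1A2, 1.36 in 1F4 and 1.33 in the degraded library on recovered reads, and at 1.35, 1.36 and 1.37 in these at 60 kb or more, where the change was 0.058. Lower tiles numbered 3 at 2-fold, 11 with 5 by 5 bins and 113 when not divided by the expected value, and higher tiles 3 at 2-fold, 54 with 20 reads, 8 with 100 reads and 0 when not divided. Tiles between 1F4 and 1A2 numbered 0 at 2-fold, 14 with 20 reads, 0 with 100 reads and 2 with 5 by 5 bins, and between 1B1 and 1A2 0, 11, 1 and 0, and 7 when not divided. Focal contacts numbered 11 at 1.3 times the ring, 0 at 2 times and 12 in 1F4 alone. Recovered reads gave segment changes of -0.31 for 1 with 3, -0.44 for 2 with 2 and 0.29 for 3 with 3, and pairs at 60 kb or more gave -0.59 for 2 with 2 and 0.37 for 3 with 3. Beyond 400 kb, the changes of segments 1 to 4 were 0.39, 0.35, -0.12 and 0.082 and that of the Usp37 bins -0.38, and beyond 250 kb recovered reads gave -0.029 for segment 3, 0.18 for segment 4 and -0.34 for the Usp37 bins. Depth limits single promoter pairs, where 14 to 131 reads lay behind each value of the 5 named.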
